A study of Mus musculus with 6 samples.

Results

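The clustered protocadherin genes are 58 genes that lie in tandem on mouse chromosome 18. They were taken from the deposited transcript tables by symbol, as every gene on that chromosome named Pcdha, Pcdhb, Pcdhga, Pcdhgb, Pcdhgc or Pcdhac with a number. They comprise 14 genes of the alpha cluster, 22 of the beta cluster and 22 of the gamma cluster, with 88 annotated transcripts among the 153503 transcripts of each table. The whole series held 53137 genes and assembled loci. Total RNA had been sequenced after ribosomal RNA removal, in lines of Sertoli cells, the somatic cells that support germ cells in the testis tubule. The GFP-positive group comprised replicates 2, 4 and 7, from lines that express a GFP reporter on the Y chromosome, and the GFP-negative group comprised replicates 9, 11 and M, from lines that do not. No strain, age or drug treatment is named for either group, and the labels do not say whether a replicate is a clone, a culture or an animal. The p-values therefore measure the spread between these 6 libraries, which may be technical.

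Clustered protocadherins are single-pass membrane proteins of the cadherin superfamily. In the alpha and gamma clusters each gene has its own promoter and its own large first exon, which encodes the whole extracellular part, and splicing joins that exon to a set of constant exons at the end of the cluster, which encode a cytoplasmic tail common to the cluster. Beta genes lack such constant exons. In neurons the proteins bind copies of themselves on other cells and give each cell a surface identity that is used in self-avoidance of dendrites and axons, and the C-type genes at the end of the alpha and gamma clusters are known for steadier use across neurons than the others.

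The libraries held 11.2, 11.8 and 11.3 Gb of aligned bases in GFP-positive 2, 4 and 7, and 10.02, 9.67 and 8.25 Gb in GFP-negative 9, 11 and M. Levels are given as FPKM (fragments per kilobase, corrected for depth), summed over the transcripts of a gene and scaled between libraries by the median of ratios. A gene was tested where it averaged 0.5 FPKM or more over the 6 libraries, and it is said to have risen or fallen where the adjusted p of limma was under 0.05 over all 15294 genes tested. Differences are on the log2(FPKM + 0.5) scale, GFP-positive minus GFP-negative, which understates changes of low genes such as most of these. Of the 18 Sertoli markers, 17 were over the filter, and Wt1, Clu, Cldn11 and Inha were among those at 13.6 FPKM or more in every library.

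The gamma cluster dominated the family and was lower in the GFP-positive lines, while the alpha cluster overlapped between the groups. Summed over its 22 genes, gamma came to 27.1, 29.1 and 22.03 FPKM in GFP-positive 2, 4 and 7, against 66.4, 66.8 and 92.4 FPKM in GFP-negative 9, 11 and M. Every GFP-positive library lay below every GFP-negative one, and the mean of 26.1 ± 3.64 FPKM in GFP-positive lines was 34.7% of the 75.2 ± 14.9 FPKM in GFP-negative lines (SD, n = 3 each). The log2 difference of the gamma sum was -1.50. Because these are bulk samples, fewer cells that express the genes and less RNA per cell cannot be told apart.

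The alpha sum was 3.87, 2.44 and 2.21 FPKM in GFP-positive 2, 4 and 7, against 2.71, 2.16 and 4.08 FPKM in GFP-negative 9, 11 and M. Here the groups overlapped, with GFP-positive 2 next to the highest library, and the log2 difference of the sum was -0.06. The beta sum was 4.79, 3.34 and 4.81 FPKM in the GFP-positive libraries and 5.13, 6.33 and 5.23 FPKM in the GFP-negative libraries. The beta groups did not overlap, but the gap between them was small beside the gap of the gamma sums, and the log2 difference was -0.34. No test was made of a summed level, and with 3 libraries against 3 an exact two-sided permutation test cannot give a p below 0.1.

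**Figure D1:**
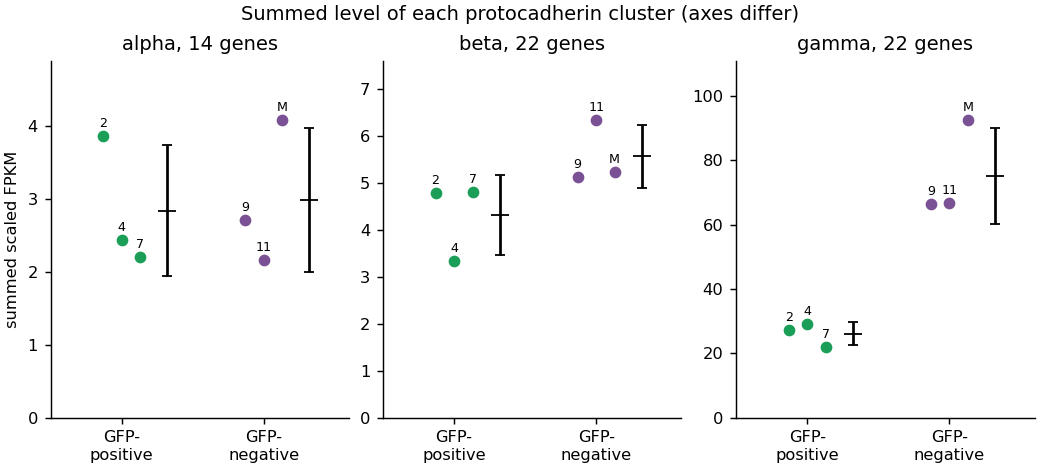
Summed scaled FPKM of the alpha, beta and gamma clusters in each library, GFP-positive at the left and GFP-negative at the right of each panel, with replicate names over the points and the mean and SD (n = 3) as bars. The alpha points of the groups overlap, the beta points lie close together, and all gamma points of the GFP-positive libraries (22.03 to 29.1) lie far below those of the GFP-negative libraries (66.4 to 92.4).

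The balance between the clusters differed accordingly. Gamma genes made up 75.8%, 83.4% and 75.9% of the summed FPKM of all 58 genes in GFP-positive 2, 4 and 7, against 89.4%, 88.7% and 90.9% in GFP-negative 9, 11 and M. The ratio of the gamma sum to the alpha sum was 7.01, 11.9 and 9.99 in the GFP-positive libraries and 24.5, 30.9 and 22.7 in the GFP-negative libraries. Both measures separated the groups without overlap. A ratio within a library does not depend on a factor that scales the whole library, and it does not show that alpha stayed level.

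Of the 58 genes, 26 were over the filter, namely all 22 gamma genes, 3 beta genes and Pcdhac2 of the alpha cluster. Of these, 11 fell and 0 rose, all 11 of them in the gamma cluster, against a background of 13.7% of all tested genes that fell and 16.6% that rose. The median log2 difference over the 22 gamma genes was -0.93, against 0.03 over all genes tested. In the gamma cluster, 20 of 22 genes had every GFP-positive library below every GFP-negative library, against 23.2% of all tested genes. The exceptions were Pcdhga1 and Pcdhga2, the first 2 genes of the cluster. The filter did not pick among gamma genes, since all of them passed, but the mean of 6 of the 22 reached 0.5 FPKM among GFP-negative libraries alone, and 4 of the 11 calls are of such genes (Pcdhga4, Pcdhga12, Pcdhgb8 and Pcdhgc5).

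**Figure D2:**
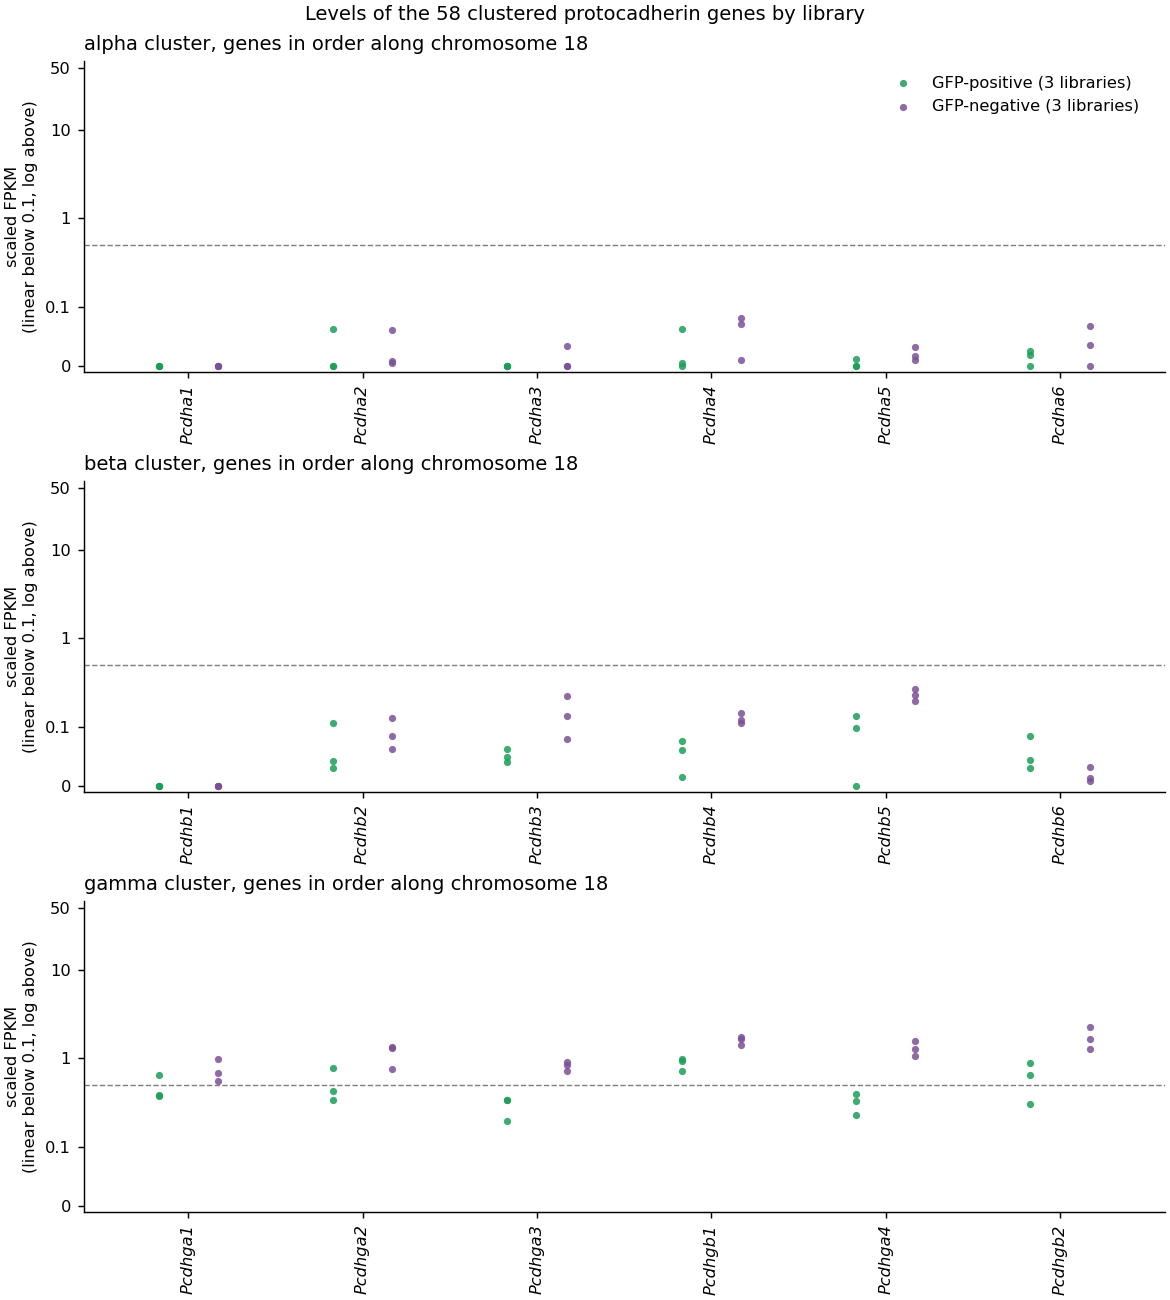
Scaled FPKM in each library of the first genes of the 3 clusters, in their order on the chromosome, GFP-positive points left of GFP-negative points. The panels show Pcdha1 to Pcdha6, Pcdhb1 to Pcdhb6 and Pcdhga1 to Pcdhgb2, and the rest of the 58 genes lie beyond the axis. The axis is linear below 0.1 and logarithmic above, and the dashed line is the filter of 0.5. The alpha and beta genes drawn lie below the dashed line in every library, and the gamma genes drawn lie on both sides of it.

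The C-type genes at the end of the gamma cluster held the most abundant member and 2 of the 3 largest falls. Pcdhgc3 (chromosome 18, 37939417 to 37974926, plus strand, mm39), whose product is known in mouse to bind Axin1, reached 10.7, 13.4 and 7.22 FPKM in GFP-positive 2, 4 and 7, against 25.6, 31.7 and 43.5 FPKM in GFP-negative 9, 11 and M. The groups were far apart, with library M the highest and GFP-positive 7 the lowest. Pcdhgc3 fell by 1.64 on the log2 scale (SE 0.31, limma adjusted p = 0.0101). It averaged 5.92 times the next gamma gene and gave between 32.8% and 47.4% of the gamma sum of a library, yet the cluster was lower without it too, at 16.4, 15.6 and 14.8 FPKM in the GFP-positive and 40.8, 35.1 and 49.0 FPKM in the GFP-negative libraries.

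Pcdhgc5 (37952566 to 37974926), a C-type gene known from late neuronal development, had 0.212, 0.309 and 0.250 FPKM in GFP-positive 2, 4 and 7 and 1.28, 1.70 and 2.44 FPKM in GFP-negative 9, 11 and M. Its mean in the GFP-positive libraries was 14.2% of that in the GFP-negative libraries, the smallest share in the gamma cluster, and its log2 level fell by 1.58 (SE 0.29, limma adjusted p = 0.00948). Pcdhgc4, which is needed for the survival of interneurons in mouse, lay just outside the threshold. It had 0.411, 0.571 and 0.692 FPKM in the GFP-positive and 0.947, 1.77 and 1.73 FPKM in the GFP-negative libraries, with a log2 difference of -0.88 (SE 0.29, limma adjusted p = 0.0502). In all 3 C-type genes GFP-negative 9 was the lowest of its group, and still above each GFP-positive library.

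Gamma B genes form 1 of the 2 sequence subfamilies that alternate along the cluster, and 5 of 7 fell. Pcdhgb6 (37875147 to 37974926) had 0.821, 1.07 and 0.565 FPKM in GFP-positive 2, 4 and 7 and 3.92, 3.45 and 4.54 FPKM in GFP-negative 9, 11 and M. No GFP-positive library came near the GFP-negative ones, and the fall of 1.77 on the log2 scale (SE 0.27, limma adjusted p = 0.00646) was the largest among the 26 tested members. Pcdhgb4 had 1.03, 0.945 and 0.918 FPKM in the GFP-positive and 2.52, 2.43 and 2.42 FPKM in the GFP-negative libraries. Its libraries were nearly equal within each group, and its log2 level fell by 1.01 (SE 0.24, limma adjusted p = 0.0177).

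Pcdhgb7 also fell, with 0.938, 0.653 and 1.02 FPKM in the GFP-positive and 2.25, 2.17 and 2.75 FPKM in the GFP-negative libraries (log2 difference -1.08, limma adjusted p = 0.0186). Pcdhgb8 had 0.433, 0.286 and 0.579 FPKM in the GFP-positive and 1.09, 1.53 and 1.64 FPKM in the GFP-negative libraries (-1.04, limma adjusted p = 0.0251). Pcdhgb2 had 0.649, 0.301 and 0.889 FPKM in the GFP-positive and 1.26, 1.65 and 2.22 FPKM in the GFP-negative libraries, a mean of 35.8% of the GFP-negative one (limma adjusted p = 0.0423). In each of these genes the highest GFP-positive library stayed below the lowest GFP-negative one, and M was the highest library.

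The gamma B genes that did not pass were Pcdhgb1 and Pcdhgb5. Pcdhgb1 had 0.930, 0.970 and 0.709 FPKM in the GFP-positive and 1.75, 1.40 and 1.67 FPKM in the GFP-negative libraries (log2 difference -0.62, limma adjusted p = 0.0921). Pcdhgb5 had 0.468, 0.726 and 0.579 FPKM in the GFP-positive and 1.37, 1.10 and 2.19 FPKM in the GFP-negative libraries (-0.88, limma adjusted p = 0.0512). Both had groups that did not overlap, and the miss of Pcdhgb5 was narrow. Summed, gamma B genes in the GFP-positive libraries came to 34.1% of the GFP-negative mean, gamma C genes to 30.6% and gamma A genes to 41.5%.

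Of the 12 gamma A genes, 4 fell. Pcdhga10, the most abundant of them, had 2.16, 2.28 and 1.95 FPKM in GFP-positive 2, 4 and 7 and 5.49, 3.50 and 6.97 FPKM in GFP-negative 9, 11 and M (log2 difference -1.10, SE 0.29, limma adjusted p = 0.0244). Its GFP-positive libraries were close together, and GFP-negative 11 was the lowest of its group. Pcdhga4 had 0.395, 0.228 and 0.330 FPKM in the GFP-positive and 1.57, 1.07 and 1.29 FPKM in the GFP-negative libraries (-1.14, limma adjusted p = 0.0171). Pcdhga12 had 0.420, 0.431 and 0.265 FPKM in the GFP-positive and 0.888, 1.42 and 2.16 FPKM in the GFP-negative libraries (-1.15, limma adjusted p = 0.0274). Relative to the GFP-negative mean, the GFP-positive mean was 24.3% for Pcdhga4 and 24.9% for Pcdhga12. Pcdhga8 had 0.718, 0.486 and 0.891 FPKM in the GFP-positive and 1.40, 1.95 and 2.21 FPKM in the GFP-negative libraries (-0.97, limma adjusted p = 0.0329).

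The other 8 gamma A genes had log2 differences between -0.36 and -0.87, and none passed. Pcdhga7 came closest, with 1.46, 1.44 and 0.949 FPKM in the GFP-positive and 2.97, 2.05 and 2.90 FPKM in the GFP-negative libraries (limma adjusted p = 0.0511). Pcdhga11 had 0.902, 1.21 and 1.04 FPKM in the GFP-positive and 2.80, 1.52 and 2.90 FPKM in the GFP-negative libraries (limma adjusted p = 0.0523). In both, GFP-negative 11 lay between the other GFP-negative libraries and the GFP-positive group. Pcdhga5 had 1.26, 1.06 and 0.871 FPKM in the GFP-positive and 2.58, 1.59 and 2.40 FPKM in the GFP-negative libraries. Pcdhga6 had 0.850, 0.606 and 0.606 FPKM in the GFP-positive and 2.06, 1.07 and 1.54 FPKM in the GFP-negative libraries. Pcdhga9 had 0.586, 0.934 and 0.797 FPKM in the GFP-positive and 1.96, 1.20 and 2.18 FPKM in the GFP-negative libraries. These 3 genes repeated the order with GFP-negative 11 at the bottom of its group, which held for 8 of the 12 gamma A genes, 4 of the 7 gamma B genes and 0 of the 3 gamma C genes.

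On the log2 scale used, the groups came closest at the start of the cluster. As a share of the GFP-negative mean this held for Pcdhga1 (62.8%) but not for Pcdhga2 (45.3%) and Pcdhga3 (35.0%), since Pcdhga5 (48.5%) and Pcdhga7 (48.6%) lie further along. Pcdhga1 had 0.640, 0.373 and 0.385 FPKM in GFP-positive 2, 4 and 7 and 0.689, 0.985 and 0.554 FPKM in GFP-negative 9, 11 and M, so that GFP-positive 2 lay within the GFP-negative range (log2 difference -0.36, SE 0.28, limma adjusted p = 0.346). Pcdhga2 had 0.773, 0.428 and 0.340 FPKM in the GFP-positive and 1.31, 0.754 and 1.34 FPKM in the GFP-negative libraries (-0.69, limma adjusted p = 0.111). Again it was GFP-positive 2 that crossed into the other group. Pcdhga3 had 0.336, 0.338 and 0.195 FPKM in the GFP-positive and 0.720, 0.846 and 0.913 FPKM in the GFP-negative libraries (-0.75, limma adjusted p = 0.0579), with no overlap.

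**Figure D3:**
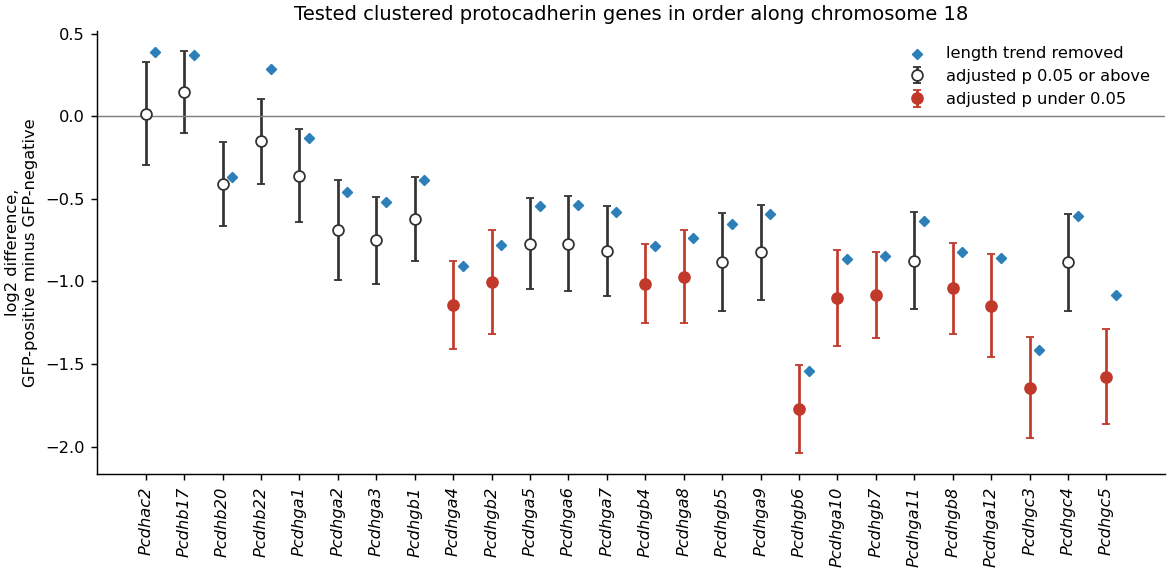
Log2 difference, GFP-positive minus GFP-negative, of the 26 tested genes in their order on the chromosome, with the SE of limma as bars. Filled points passed the threshold, and diamonds give the difference with a trend in transcript length removed. All 22 gamma genes lie below 0, the first of them nearest to it (-0.36), and Pcdhgb6 (-1.77), Pcdhgc3 (-1.64) and Pcdhgc5 (-1.58) lie lowest.

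Along the gamma cluster the difference tended to grow from the first gene to the last. The Spearman correlation between a gene's place and its log2 difference was -0.70 over the 22 genes. With a pseudocount of 0.1 it was -0.54, and with the length trend removed -0.67. The genes share the same 6 libraries and the same constant exons, so the correlation is a description of these libraries.

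The constant exons limit how well the gamma and alpha genes can be told apart from each other. In the GENCODE M21 annotation, whose exon lengths were used without its coordinates, the 4-exon transcripts of all 22 gamma genes have 3 exons in common, of 2116 nt. These make up 41.7% to 45.9% of each such transcript. The 14 alpha genes have 3 exons of 2860 nt in common, or 48.6% to 54.9% of each 4-exon transcript. Reads that lie within these exons carry no mark of the gene they came from, and the assembler divided them, so that the level of 1 gene depends on the reads of its first exon and on how the common reads were split. The sum of a cluster does not depend on that split to the same degree.

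The tables also list 11 gamma transcripts, 1 in each of 11 genes, that stop short of the shared 3' end. They consist of 1 or 2 exons and have no part in the constant exons at the end. Their first exons also belong to the full transcripts of the same genes, so their FPKM depends on how the assembler split those reads. The short transcript of Pcdhgb1 ends at 37819936, beyond the start of Pcdhga4 (37818263), and that of Pcdhgb4 at 37862408, beyond the start of Pcdhga8 (37858759). Reads there may not be separable between the genes of each pair. Summed, these short transcripts came to 6.12, 5.05 and 4.54 FPKM in GFP-positive 2, 4 and 7 and 10.1, 7.77 and 9.68 FPKM in GFP-negative 9, 11 and M. The transcripts that reach the shared end came to 21.01, 24.02 and 17.5 FPKM in the GFP-positive and 56.3, 59.03 and 82.7 FPKM in the GFP-negative libraries. Both kinds were lower in every GFP-positive library, and the short ones less so, so that their share of the gamma FPKM was 22.6%, 17.4% and 20.6% in the GFP-positive and 15.2%, 11.6% and 10.5% in the GFP-negative libraries. No test was made of this share.

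For Pcdhgc3, the gene with the most FPKM behind it, the short transcript took 14.9%, 14.7% and 17.1% of the FPKM in the GFP-positive and 8.86%, 7.39% and 8.16% in the GFP-negative libraries. Tested transcript by transcript, the 4-exon Pcdhgc3 transcript of 4687 nt fell by 1.76 on the log2 scale (SE 0.36, limma adjusted p = 0.0391), with 8.89, 11.3 and 5.95 FPKM in the GFP-positive and 23.0, 29.0 and 38.2 FPKM in the GFP-negative libraries. The short transcript of 3380 nt had 1.60, 1.97 and 1.23 FPKM in the GFP-positive and 2.27, 2.34 and 3.55 FPKM in the GFP-negative libraries and did not pass (log2 difference -0.62, limma adjusted p = 0.227). Neither transcript's groups overlapped. The gene BC037039 lies opposite the first exon of Pcdhgc3, and as no source used here states the strand setting of the assembly, its reads cannot be told apart from those of Pcdhgc3 with certainty. BC037039 had 1.11, 1.39 and 0.887 FPKM in the GFP-positive and 1.62, 2.32 and 2.25 FPKM in the GFP-negative libraries, of like size to the short Pcdhgc3 transcript in some libraries, such as GFP-negative 11, and below it in each.

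**Figure D4:**
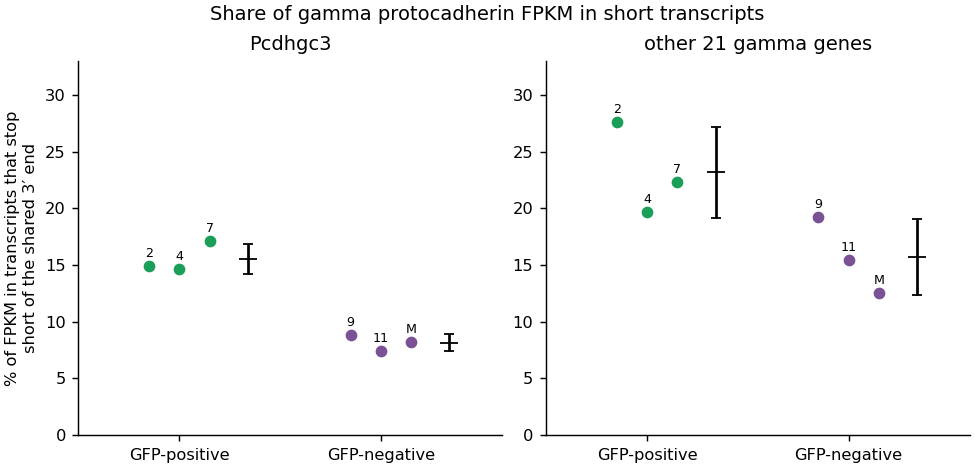
Percent of the FPKM of Pcdhgc3 (left panel) and of the other 21 gamma genes together (right panel) in transcripts that stop short of the shared 3' end, per library, GFP-positive left and GFP-negative right in each panel, with mean and SD (n = 3). For Pcdhgc3 the GFP-positive libraries (14.7 to 17.1%) lie above the GFP-negative ones (7.39 to 8.86%), and for the other genes the gap is narrow (19.7 to 27.6% against 12.5 to 19.2%).

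The split between full and short transcripts was uneven in single genes. For Pcdhga1 the full transcript averaged 0.0359 FPKM in the GFP-positive and 0.359 FPKM in the GFP-negative libraries, while its short transcript averaged 0.430 and 0.384 FPKM in the same groups. Pcdhgb1 had a full transcript at 0.0393 FPKM in the GFP-positive and 0.614 FPKM in the GFP-negative libraries and a short one at 0.831 FPKM in the GFP-positive and 0.991 FPKM in the GFP-negative libraries. In other genes the short transcript was as low as the full one or lower. The short transcript of Pcdhgb2 stood at 31.7% of its GFP-negative mean and the full one at 39.0%, and that of Pcdhgc4 at 32.9% against 40.9% for the full one. In Pcdhga12 both kinds were at nearly the same share. Pcdhgb4 showed how unstable the split was, since its full transcript was listed at 0, 0.945 and 0.662 FPKM and its short one at 1.03, 0 and 0.255 FPKM in GFP-positive 2, 4 and 7, although the gene's sum was nearly equal in the 3 libraries. Tested per transcript, with 2.59% of all transcripts fallen, 2 members fell, the single transcript of Pcdhgb6 and the 4-exon transcript of Pcdhgc3.

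The alpha cluster (37063237 to 37320714) was represented almost wholly by Pcdhac2, its last gene, a C-type alpha known in serotonergic neurons for the spacing of axons. Pcdhac2 had 3.41, 2.36 and 2.10 FPKM in GFP-positive 2, 4 and 7 and 2.42, 1.79 and 3.72 FPKM in GFP-negative 9, 11 and M. The groups overlapped throughout, and the log2 difference was 0.01 (SE 0.31, limma adjusted p = 0.976). It held between 82.7% and 96.4% of the alpha sum. Pcdha1 was listed at 0 in every library. Each of the other 12 alpha genes stayed at or below 0.117 FPKM, and the highest of them by mean were Pcdha11, Pcdha12 and Pcdha4. Pcdha11 had 0.117, 0.0615 and 0.0438 FPKM in the GFP-positive and 0.0954, 0.0623 and 0.0291 FPKM in the GFP-negative libraries. Pcdha12 had 0.0972, 0 and 0.0286 FPKM in the GFP-positive and 0.0177, 0.0579 and 0.0802 FPKM in the GFP-negative libraries. Pcdha4 had 0.0624, 0 and 0.00469 FPKM in the GFP-positive and 0.0708, 0.0101 and 0.0807 FPKM in the GFP-negative libraries. Levels of this size are too low to compare, and the groups overlapped in all 13 alpha genes that were not at 0.

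Beta genes (37397991 to 37657532) are mostly single exons with no constant part, so the division of shared 3' reads does not touch them. Their levels increased along the cluster, with a Spearman correlation of 0.82 between place and mean level over the 22 genes, and the last 7 genes, Pcdhb16 to Pcdhb22, held 69.3% of the beta mean. Pcdhb17 (37617848 to 37622507) was the highest, with 1.04, 1.01 and 1.06 FPKM in the GFP-positive and 0.966, 0.836 and 0.866 FPKM in the GFP-negative libraries. It was the only tested member with every GFP-positive library above every GFP-negative one, against 24.4% of all tested genes, and the log2 difference of 0.15 did not pass (SE 0.25, limma adjusted p = 0.667).

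Pcdhb20 had 0.422, 0.392 and 0.394 FPKM in the GFP-positive and 0.595, 0.720 and 0.794 FPKM in the GFP-negative libraries (log2 difference -0.41, SE 0.26, limma adjusted p = 0.240). Pcdhb22 had 0.506, 0.512 and 0.403 FPKM in the GFP-positive and 0.531, 0.635 and 0.578 FPKM in the GFP-negative libraries (-0.15, limma adjusted p = 0.667). Neither passed, though the groups did not overlap in either. The first 488 nt of Pcdhb22 are also the last 488 nt of Pcdhb21, so reads there belong to both genes.

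The remaining 19 beta genes were below the filter, and Pcdhb1 was listed at 0 in every library. Pcdhb19 had 0.351, 0.264 and 0.380 FPKM in the GFP-positive and 0.492, 0.582 and 0.354 FPKM in the GFP-negative libraries. Pcdhb16 had 0.381, 0.114 and 0.402 FPKM in the GFP-positive and 0.448, 0.554 and 0.471 FPKM in the GFP-negative libraries. Pcdhb18 had 0.157, 0.154 and 0.282 FPKM in the GFP-positive and 0.364, 0.420 and 0.401 FPKM in the GFP-negative libraries. Pcdhb16 and Pcdhb18 were lower in every GFP-positive library, whereas the groups overlapped in Pcdhb19. Over the 21 beta genes not at 0, with no filter, 8 had all GFP-positive libraries lower and 2 had them all higher, against 15% and 14.9% of all genes in that fit. Of the 21, 0 passed the threshold in either direction, against 2.14% of all genes lower and 3.12% higher. GFP-positive 4 was the lowest library of its group in 18 of the 22 beta genes, and without it the log2 difference of the beta sum was -0.17.

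Taking all 58 genes whatever their level, the mean was lower in the GFP-positive libraries for 22 of 22 gamma, 14 of 22 beta and 11 of 14 alpha genes. Pcdha1 and Pcdhb1, at 0 throughout, could not be lower. The alpha count does not show a decrease, since nearly all its genes were too low to compare. Pcdhac2 counts as lower with means of 2.62 FPKM in GFP-positive and 2.64 FPKM in GFP-negative libraries. The share of all genes with a lower mean was not computed. With no filter on the mean, 56 members could be fitted and 4 fell, Pcdhgb4, Pcdhgb6, Pcdhgc3 and Pcdhgc5, against the same background of 2.14%, and 0 rose. Counting genes at 0.5 FPKM or more, GFP-positive 2, 4 and 7 had 15, 13 and 16 gamma genes and the GFP-negative libraries 22 each. This cut is the filter value, so the count follows from the lower gamma levels and is no separate result.

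Transcript length moved with the comparison. Over all tested genes the log2 difference correlated with log2 transcript length (Pearson's r = -0.46, n = 15294 genes, which are not independent replicates), and the tested protocadherins are long, with a median longest transcript of 4723 nt against 3180.5 nt for all tested genes. With a loess trend on length removed from each library, Pcdhgb6 (-1.54), Pcdhgc3 (-1.41) and Pcdhgc5 (-1.08) fell and the other 8 calls were lost, against 9.34% of all genes fallen. All 22 gamma genes remained below 0 in that fit, with a median log2 difference of -0.69.

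The calls also rested on single libraries, as did those of all genes. Without GFP-negative M, Pcdhgb6 alone fell, against 0.983% of all genes. Without GFP-positive 7, Pcdhgb6 and Pcdhgc5 fell, against 1.65% of all genes. Leaving out GFP-positive 2 gave 6 falls and GFP-positive 4 gave 4, against 6.61% and 7.27% of all genes. Leaving out GFP-negative 9 or 11 gave 12 falls each, against 19.7% and 9.14% of all genes. Pcdhgb6 passed in 6 of these 6 fits. Among genes with a mean of at least 1 FPKM, 7 members fell, against 15.4% of all genes. Scaled to an equal sum of FPKM, 22 members fell, against 43.6% of all genes, and with library weights 23 or 22 did, against 38.6% or 28.6%.

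Other cell types could contribute to these bulk libraries. Of 11 tested germ cell markers, 8 were higher in the GFP-positive libraries and 0 lower, and Prm1 and Prm2 were listed at 0. The summed list came to 144 to 227 FPKM in the GFP-positive and 93.8 to 103 FPKM in the GFP-negative libraries. Nearly all of the GFP-negative sum was Uchl1, at 90.9, 96.9 and 98.3 FPKM there and 18.6, 97.7 and 72.2 FPKM in the GFP-positive libraries. Uchl1 did not pass (log2 difference -0.90, limma adjusted p = 0.228). The 8 higher markers each stayed at or below 0.679 FPKM in every GFP-negative library. Of 12 tested myoid and fibroblast markers 4 fell, with sums of 173 to 1909 FPKM in the GFP-positive and 464 to 2074 FPKM in the GFP-negative libraries. The 4 that fell, Col1a1, Pdgfrb, Myh11 and Actg2, were highest in GFP-negative 11 and next highest in GFP-negative M, whereas Tagln and Cnn1, which did not pass, were highest in GFP-positive 4. Neuron and glia markers did not pass in either direction (5 of 14 tested, sums of 88.3 to 172 FPKM in the GFP-positive and 124 to 181 FPKM in the GFP-negative libraries), nearly all from the cytoskeletal genes Tubb3 and Map2. Stmn2 was listed at 0, and Snap25, Syp, Syt1, Rbfox3 and Elavl3 stayed at or below 0.147 FPKM in every library. Of the other lists, the Sertoli markers had 2 of 17 higher and 4 lower (Sox9 by -1.82, Inhba and Gdnf among them, with Dmrt1 higher by 1.11), the Leydig markers 1 of 4 lower, the macrophage markers 1 of 2 lower (Lyz2) and the endothelial markers 0 of 1. The Leydig, macrophage and endothelial lists had too few tested genes to compare with the shares of all genes. The part of such cells in the gamma result was not tested.

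Related adhesion genes outside chromosome 18's clusters were set beside the gamma genes. Of 21 nonclustered protocadherins and relatives, 9 were tested, 5 fell and 0 rose, against 13.7% and 16.6% of all tested genes, with a median log2 difference of -0.99. The falls were those of Fat1, Dchs1, Celsr1, Celsr2 and Pcdh19. The other tested Pcdh genes, Pcdh1 (-0.99), Pcdh7 (-0.48), Pcdh9 (-0.46) and Pcdh18 (-0.09), did not pass. With the length trend removed, Fat1 alone fell (-1.37), against 9.34% of all genes, and the median was -0.58. The giant protocadherin Fat1 averaged 34.9 ± 6.40 FPKM in the GFP-positive and 152 ± 37.6 FPKM in the GFP-negative libraries (SD, n = 3 each, log2 difference -2.09, limma adjusted p = 0.00599). Pcdh19, an adhesion molecule known for a human epilepsy, had 1.01, 1.30 and 2.26 FPKM in the GFP-positive and 3.31, 4.58 and 3.93 FPKM in the GFP-negative libraries (-1.17, limma adjusted p = 0.0226). Dchs1, a partner of Fat4, and the planar polarity receptor gene Celsr1 fell by 1.76 and 1.46, and both were highest in GFP-negative 11. Among 7 tested classical and related cadherins 1 fell, Cdh11 (-0.98, limma adjusted p = 0.0256), a share near the 13.7% of all tested genes, and the median was -0.38. With the length trend removed 0 of the 7 fell, Cdh11 had a difference of -0.61 (limma adjusted p = 0.131), and the median was 0.17.

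The factors known to act at protocadherin promoters were lower in part. Of 22 tested, 8 fell and 0 rose, against 13.7% and 16.6% of all tested genes, with a median log2 difference of -0.37. Ctcf, which binds the variable promoters and an enhancer and loops them together with cohesin, had 4.21, 4.04 and 5.51 FPKM in the GFP-positive and 8.44, 11.7 and 12.8 FPKM in the GFP-negative libraries (-1.17, limma adjusted p = 0.0150). Wiz, a zinc finger protein found with CTCF and cohesin, fell by 1.88 on the log2 scale. The DNA methyltransferase gene Dnmt3a had 4.87, 4.74 and 3.97 FPKM in the GFP-positive and 9.90, 25.4 and 25.6 FPKM in the GFP-negative libraries (-1.93, limma adjusted p = 0.0104). Tet3, which oxidises methylcytosine, fell by 2.37. The groups did not overlap in these 4 genes, but they were named for the lowest adjusted p of the list, so this adds nothing to the calls. Of all tested genes, 23.2% had every GFP-positive library below every GFP-negative one. Elsewhere in the list the groups overlapped in genes such as Stag1 and Dnmt1, and Dnmt3b was higher without overlap and did not pass. With the length trend removed 4 of the 22 fell, against 9.34% of all genes, and the median was 0.09. Smchd1, which represses clustered protocadherins in mouse, had 22.7, 10.1 and 15.6 FPKM in the GFP-positive and 15.1, 13.5 and 13.3 FPKM in the GFP-negative libraries and did not pass (0.13, limma adjusted p = 0.770), and was named after its values were seen.

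Of 18 tested genes for cleavage of protocadherins and for partners of their cytoplasmic tails, 6 fell and 1 rose, against 13.7% and 16.6% of all tested genes, with a median of -0.55. The 4 named by adjusted p were Cyfip1 and Wasf2 of the WAVE complex, which regulates actin, the focal adhesion kinase relative Ptk2b, which binds the alpha and gamma tails, and the kinase gene Fyn. Cyfip1 had 9.91, 12.7 and 11.4 FPKM in the GFP-positive and 23.8, 30.5 and 27.5 FPKM in the GFP-negative libraries (-1.23, limma adjusted p = 0.0102). Ptk2b fell by 1.61, Wasf2 by 1.88 and Fyn by 1.20. In all 4 genes the groups did not overlap, as in 23.2% of all tested genes with GFP-positive lower. Since the 4 were picked by adjusted p, this adds nothing to their calls. The gene that rose was the gamma-secretase subunit gene Psenen (0.75). With the length trend removed 5 of the 18 fell, against 9.34% of all genes, and 0 rose. Cyfip1 was no longer called in that fit (-0.75, limma adjusted p = 0.0510).

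**Figure D5:**
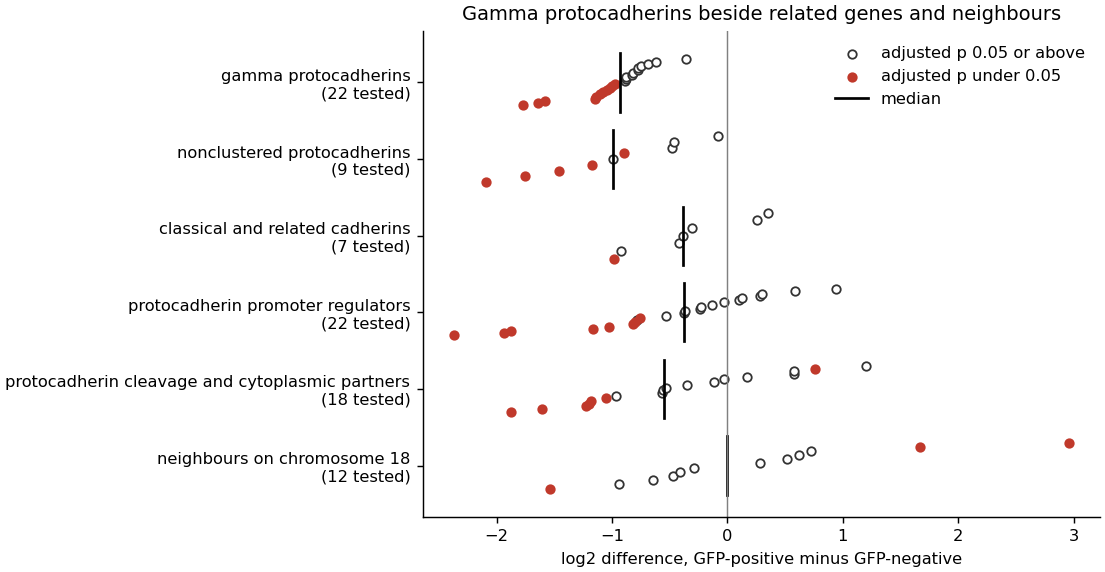
Log2 difference, GFP-positive minus GFP-negative, of tested genes in the gamma cluster and 5 comparison lists, with filled points past the threshold and a vertical bar at each list's median. The gamma genes all lie below 0, from -1.77 to -0.36 (median -0.93), and the neighbours on chromosome 18 spread on both sides of 0. The list of nonclustered protocadherins, which also holds Fat, Dchs and Celsr genes, has a median of -0.99 over a wide range.

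Neighbouring genes lay on both sides of 0. Taf7, a subunit gene of the general transcription factor TFIID that lies between the beta and gamma clusters, had 27.6, 7.22 and 10.9 FPKM in the GFP-positive and 5.67, 3.22 and 2.83 FPKM in the GFP-negative libraries (log2 difference 1.67, limma adjusted p = 0.0295). Ahead of the alpha cluster, the germ cell gene Dnd1 rose by 2.96 (limma adjusted p = 0.00588). Next to the end of the gamma cluster, the formin gene Diaph1 had 1.89, 2.79 and 2.21 FPKM in the GFP-positive and 4.64, 11.0 and 8.34 FPKM in the GFP-negative libraries (-1.54, limma adjusted p = 0.0137). So 2 of the 12 neighbours rose, on either side of the alpha and beta clusters, 1 fell, and the other 9 did not pass. These counts are near or below the shares of all tested genes, 16.6% that rose and 13.7% that fell. Among the noncoding genes opposite or between the members, BC037039 (-0.65, limma adjusted p = 0.0944) and Gm53048 (-0.47) were tested and did not pass. With the length trend removed, BC037039 fell (-0.91, limma adjusted p = 0.0452), against 9.34% of all genes, and Gm53048 did not pass (-0.89, limma adjusted p = 0.0656). In that fit the neighbour Slc25a2, between the beta and gamma clusters, also fell (-1.40, limma adjusted p = 0.0460). Taf7, Dnd1 and Diaph1 kept their calls there.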

How the data were processed

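Per the file headers, each deposited table lists transcripts with the authors' FPKM and mean per-base coverage, and that deposited coverage signal was used only to obtain aligned bases. Reads were handled with Trimmomatic, HISAT2 and StringTie on mm39, per the submitters' processing notes, and coordinates are in that build. Nothing in the sources states the strand setting. As FPKM are no counts, values carry no counting interval.

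FPKM was summed per gene (for the protocadherins, over transcripts bearing the symbol), and 1425 unnamed transcripts that fit no single gene, 1.63% to 6.34% of the FPKM, were left out. Scaling used the median of ratios, taken over 12678 genes averaging 1 FPKM or more. Genes under 200 nt or with a mean under 0.5 were not tested. The test was that of limma 3.58.1 (R 4.3.3) on log2(scaled FPKM + 0.5) (eBayes with a mean-variance trend) and Benjamini-Hochberg adjustment over 15294 genes, a threshold of 0.05, after the method was tested on simulated data. Of all genes, 4635 passed, 2539 higher and 2096 lower in GFP-positive.

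Alternatives varied the pseudocount, filter, scaling, variance model, library weights, gene definition, length trend, unit of testing and libraries included. The members and lists were chosen with earlier results of these data known. Every tested member, the 3 highest untested ones of a cluster, the 4 called genes of each list with the lowest adjusted p and neighbouring genes are named, and others were chosen after their values were seen. Tables were read in Python 3.11.15, and figures made by matplotlib 3.10.9.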

Additional observations from a re-analysis of the deposited data

How the results depend on the processing

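The 11 falls among the clustered protocadherins kept their direction in each alternative that tested them, but the number of falls moved. It was 4 with no filter, 7 with a mean of at least 1, where 17 members were tested, 3 with the length trend removed, 2 per transcript, and 22 with an equal sum of FPKM per library. It was 23 with library weights, whose estimation stopped before it converged, and 22 with a gene-by-gene estimate of the weights, chosen after seeing the data. Leaving out 1 library gave 1 to 12 falls (6 without GFP-positive 2, 4 without GFP-positive 4, 2 without GFP-positive 7, 12 without GFP-negative 9 or 11, 1 without GFP-negative M). Pcdhgb6 passed in 6 of these 6 fits, Pcdhgc5 in 5, and Pcdhgc3 and Pcdhgb4 in 4. Over all genes, the 4635 calls became 1772 with no filter, 2678 after removal of the length trend, 7348 with an equal sum, 12261 and 9193 with the 2 kinds of weights, and 538 to 6209 when 1 library was left out.

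An equal sum moved the median of all genes to -0.85 and the share of calls that were higher to 8.33%, against 54.8%. On that scale the log2 differences of the sums were -2.51 for gamma, -1.26 for beta and -0.92 for alpha. Without 1 library they ranged from -1.61 to -1.36 for gamma, -0.41 to -0.17 for beta and -0.26 to 0.13 for alpha. Pcdhac2 changed sign with FPKM as deposited (-0.0091), an equal sum (-0.83), weights (-0.64 and -0.45), and without GFP-positive 2 (-0.14), GFP-negative 9 (-0.02) or 11 (-0.22), its values without 1 library ranging from -0.22 to 0.22. Pcdhb17 changed sign with an equal sum (-0.52) and Pcdhb22 with the length trend removed (0.28). None of these 3 genes was called in the main setting. Pcdhac2 was called as lower with the first kind of weights (limma adjusted p = 0.000897), and the causes were not tested. No paired analysis was possible because the groups share no replicate name.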
